A study of Rattus norvegicus with 9 samples.

Results

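Neutrophils are short-lived white blood cells that are made in bone marrow and recruited from blood into inflamed tissue. Their production and release are driven by granulocyte colony stimulating factor (G-CSF), a cytokine encoded by Csf3 that acts through the receptor encoded by Csf3r. Chemokines that bind CXCR2 guide them, and they carry granule and cytosolic proteins such as myeloperoxidase, neutrophil collagenase, lipocalin 2 and calprotectin. Several of these genes are also active outside neutrophils. Endothelial cells carry CXCR2, fat and epithelium make lipocalin 2, and glucocorticoids are known to induce Il1r2.

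The genes described here are 1 cytokine (Csf3), 3 receptors (Csf3r, Cxcr2, Il1r2) and 5 granule or cytosolic proteins (S100a8, S100a9, Mpo, Mmp8, Lcn2). They were chosen by gene symbol with earlier results of these data known, and all 9 were found among the 18964 genes of the deposited expression table. Counts and medians of the 9 set beside those of all genes are therefore a description and carry no test. All 9 also passed the filter on low counts, which left 14643 genes for testing.

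The RNA came from gastric lymphatic vessels of wild-type male Sprague-Dawley rats weighing 180 to 220 g, all fasted for 12 h. Control rats had no stress and received water by gavage. Model rats spent 4 h in a pool with water 15 cm deep at 22 ± 2 °C, and 30 min later received a gavage given as saline in one label and as distilled water in the protocol. BXD rats had the same immersion followed by Banxia Xiexin decoction, a Chinese herbal mixture, at 10 ml/kg. Each group had 3 libraries from a group of 6 rats, and the labels do not say which rats gave which library or whether animals were pooled. The p-values therefore measure the spread between these libraries, which may be technical. Library totals ran from 12313813 to 13455705 estimated counts, so 3 counts in a library corresponded to 0.195 to 0.269 CPM (counts relative to the library total, scaled for library composition).

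After immersion stress, 5 of the 9 genes were higher than in control: Csf3 (14.2-fold), Il1r2 (6.90-fold), Cxcr2 (3.47-fold), Mpo (3.15-fold) and S100a9 (1.89-fold). The rise passed an adjusted p of 0.05 in edgeR's quasi-likelihood test with Benjamini-Hochberg adjustment over all genes, which is what "called" means below. Of all 14643 genes, 42.2% were called in this comparison and 21.6% were called higher. Between BXD and model 0 of the 9 genes were called, where 0.0615% of all genes were (0.0546% higher and 0.00683% lower). Between BXD and control 5 of the 9 were called higher (Csf3, Il1r2, S100a8, S100a9 and Cxcr2), where 30.3% of all genes were called and 16.1% were called higher. Both comparisons with control use the same control libraries. In whole tissue, fewer cells of a type and less RNA per cell cannot be told apart.

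**Figure D1:**
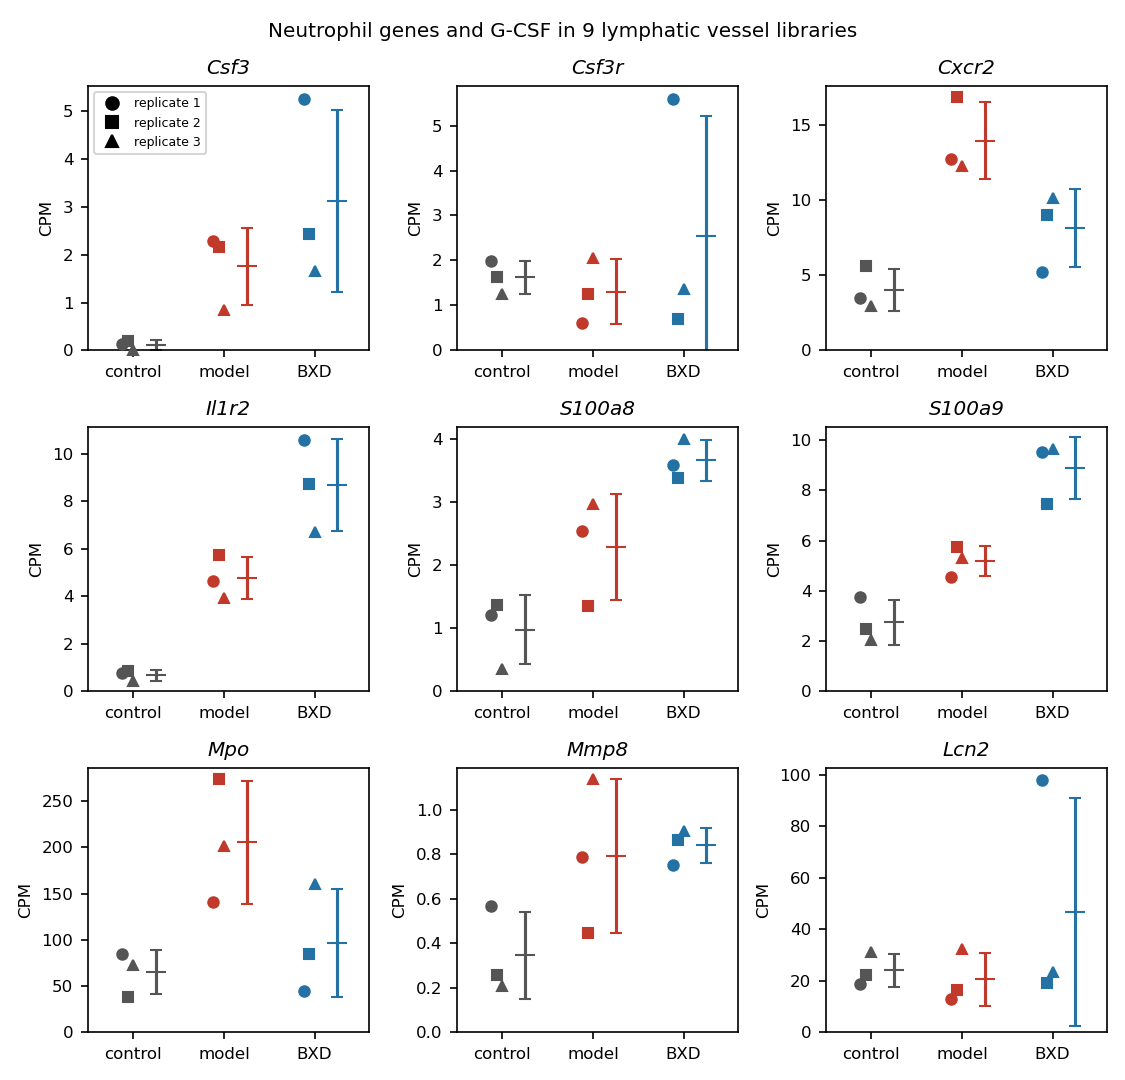
Level of each of the 9 genes in CPM (vertical axes) in the control, model and BXD libraries; points are libraries, bars are the mean ± SD of 3 libraries, and SD bars are cut at 0. The Csf3, Il1r2 and Cxcr2 points of model and BXD lie above control except for 1 BXD library of Cxcr2, and 1 BXD library stands far above the rest for Lcn2 and Csf3r.

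Promoter sequence was looked up for the 9 genes in RefSeq (build GRCr8), and 6 matched: S100a9, Lcn2, Csf3r, Mmp8, Cxcr2 and Mpo. The 250 bases before the start of the gene are given for 4 of them, because they stand for the different courses across the groups: S100a9 was highest in BXD, Cxcr2 and Mpo were highest in model, and Lcn2 was high in 1 BXD library. Capitals mark the letters that matched a searched motif, and each sequence is read 5′ to 3′ on the strand of its gene.
S100a9: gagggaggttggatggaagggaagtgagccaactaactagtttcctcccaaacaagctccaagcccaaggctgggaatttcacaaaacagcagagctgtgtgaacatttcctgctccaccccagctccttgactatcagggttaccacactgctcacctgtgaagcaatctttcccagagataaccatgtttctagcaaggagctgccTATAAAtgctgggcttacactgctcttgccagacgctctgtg
Cxcr2: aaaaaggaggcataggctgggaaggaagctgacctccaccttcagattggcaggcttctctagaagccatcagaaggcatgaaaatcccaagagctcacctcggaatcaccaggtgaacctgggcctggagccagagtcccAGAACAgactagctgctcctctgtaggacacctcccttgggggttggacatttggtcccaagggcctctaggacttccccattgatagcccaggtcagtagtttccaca
Mpo: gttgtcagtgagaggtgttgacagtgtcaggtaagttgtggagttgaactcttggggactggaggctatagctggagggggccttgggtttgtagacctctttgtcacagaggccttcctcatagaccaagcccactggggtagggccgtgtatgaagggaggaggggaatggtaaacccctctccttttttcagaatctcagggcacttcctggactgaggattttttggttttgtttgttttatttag
Lcn2: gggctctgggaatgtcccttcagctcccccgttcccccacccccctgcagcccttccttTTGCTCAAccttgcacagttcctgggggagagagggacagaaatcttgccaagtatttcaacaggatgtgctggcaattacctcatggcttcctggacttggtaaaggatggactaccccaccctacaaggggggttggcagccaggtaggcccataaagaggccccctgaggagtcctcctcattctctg

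The S100a9 stretch lies at chr2:178490623-178490872 on the minus strand, Cxcr2 at chr9:83178395-83178644 on the plus strand, Mpo at chr10:73092152-73092401 on the plus strand and Lcn2 at chr3:36081781-36082030 on the minus strand. A set of 6 motifs was searched on both strands of the 6 matched promoters and of 33469 RefSeq promoters of the same length. The TATA box letters TATAAA, found in 12.9% of all promoters, stood 42 to 37 bases before the start of S100a9. The glucocorticoid receptor half-site letters AGAACA, found in 17.5%, stood 109 to 104 bases before the start of Cxcr2. The C/EBP letters TTNNGCAA, found in 9.22%, matched Lcn2 on the minus strand, 191 to 184 bases before its start. The 250 bases of Mpo matched none of the motifs. Among the promoters not printed, Csf3r matched the PU.1 letters AGAGGAAG, found in 3.58%, and Mmp8 matched C/EBP at 2 places, the STAT letters TTCNNNGAA, found in 7.67%, and the TATA box. The NF-kappaB letters, GGG and TTTCC with any 2 bases between them, were found in 1.3% and in 0 of the 6. Sequences that depart from these letters were not counted, such as gggaatgtcc near the 5′ end of the Lcn2 stretch. The search therefore does not show that a promoter lacks such a site. These letter matches describe the sequence and are not evidence of binding.

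Csf3, which encodes G-CSF (gene ID 25610, chromosome 10, 86616785 to 86619160, plus strand, Rnor_6.0), was close to the limit of detection without stress. Control libraries 1 to 3 held 2, 3 and 0 counts of it, model libraries 26, 24 and 11, and BXD libraries 63, 31 and 22. In CPM these were 0.142, 0.195 and 0 in control, 2.28, 2.15 and 0.836 in model, and 5.26, 2.43 and 1.66 in BXD. Every stressed library thus lay above every control library, while model and BXD overlapped. Model exceeded control by 3.83 ± 0.81 (SE) on the log2 scale, with an adjusted p of 0.005998. As a ratio of pooled normalised counts this was 14.9, with a 95% interval of 6.06 to 47.6 that covers counting error only. BXD exceeded control by 4.66 ± 0.79 (adjusted p = 0.00342), a pooled ratio of 26.7 with an interval of 11.1 to 83.9. Since control rests on 5 counts, these sizes depend on single libraries: without control replicate 2 the differences were 4.43 and 5.28, without control replicate 3 they were 3.27 and 4.12, and without BXD replicate 1 BXD exceeded control by 4.06. On FPKM they were 2.98 and 3.78. Csf3 was called in each of the 19 alternatives tried for each comparison with control. The BXD and model groups differed by 0.83, with a 95% interval of -0.51 to 2.17 and an adjusted p of 0.4556, and by 0.23 without BXD replicate 1.

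Csf3r, the G-CSF receptor of neutrophils and their precursors (gene ID 298518, chromosome 5, 144031353 to 144051966, plus strand), did not follow its ligand. Its CPM was 1.99, 1.62 and 1.26 in control, 0.613, 1.25 and 2.05 in model, and 5.59, 0.706 and 1.36 in BXD. The 3 groups overlapped, and BXD replicate 1 stood apart as the highest library. The log2 difference of model from control was -0.30 (95% interval -1.94 to 1.33, adjusted p = 0.759), that of BXD from control 0.64 (interval -0.94 to 2.22, adjusted p = 0.523) and that of BXD from model 0.94 (interval -0.68 to 2.57, adjusted p = 0.484). Without BXD replicate 1 the last of these values became -0.35 and the difference from control -0.64.

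Cxcr2, the receptor for CXCL1 and related chemokines (gene ID 29385, chromosome 9, 81427275 to 81435065, plus strand), was highest in model. Its CPM was 3.48, 5.58 and 2.94 in control, 12.7, 16.9 and 12.2 in model, and 5.18, 9.02 and 10.1 in BXD. Model overlapped with neither of the other groups, and 1 BXD library lay within the control range. The rise from control to model was 1.79 ± 0.32 on the log2 scale (adjusted p = 0.002885), and it was called in each of 19 alternatives. BXD exceeded control by 1.02 ± 0.32 (adjusted p = 0.03752), a call that was lost in 10 of 19 alternatives. These were scaling by upper quartiles, library size alone or FPKM, fitting only the groups compared, and 6 libraries left out. Among the last was leaving out control replicate 3, which gave 0.83 with an adjusted p of 0.123, or BXD replicate 3, which gave 0.83 with an adjusted p of 0.114. Leaving out control replicate 1, model replicate 1, model replicate 3 or BXD replicate 2 gave 0.92, 1.02, 1.02 and 0.93 with adjusted p of 0.117, 0.0513, 0.051 and 0.107. BXD lay below model by a log2 difference of -0.78 (95% interval -1.47 to -0.09), which did not pass the test after adjustment (adjusted p = 0.196).

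Il1r2, a decoy receptor that binds interleukin-1 without passing on a signal (gene ID 117022, chromosome 9, 46840646 to 46881241, plus strand), separated all 3 groups. Its CPM was 0.781, 0.844 and 0.421 in control, 4.64, 5.74 and 3.95 in model, and 10.6, 8.71 and 6.72 in BXD. The rise was 2.79 ± 0.32 on the log2 scale in model (adjusted p = 0.0005995) and 3.65 ± 0.33 in BXD (adjusted p = 0.0005145), each called in 19 of 19 alternatives. The lowest BXD library lay above the highest model library, but the difference of 0.86 (95% interval 0.23 to 1.49) was not called, with an adjusted p of 0.1487. The lowest adjusted p of any of the 9 genes between BXD and model over the alternatives was 0.061, for Il1r2.

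S100a9 and S100a8, the subunits of calprotectin, a calcium- and zinc-binding protein abundant in neutrophil cytosol, had group means that increased in the order control, model, BXD. S100a9 (gene ID 94195, chromosome 2, 190097436 to 190100209, minus strand) had 3.76, 2.47 and 2.03 CPM in control, 4.56, 5.74 and 5.32 in model, and 9.52, 7.45 and 9.66 in BXD. The 3 groups did not overlap in CPM or FPKM. In TPM (corrected for gene length and depth), control replicate 1 at 28.1 lay above model replicate 1 at 26.6. The difference was 0.92 ± 0.26 on the log2 scale for model (adjusted p = 0.02062), 1.69 ± 0.26 for BXD against control (adjusted p = 0.002246) and 0.77 for BXD against model (95% interval 0.20 to 1.34, adjusted p = 0.1502). The call in model was lost without control replicate 2 (0.83, adjusted p = 0.0777), without control replicate 3 (0.72, adjusted p = 0.0773), without model replicate 2 (0.85, adjusted p = 0.061) and with scaling by library size alone (0.65).

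S100a8 (gene ID 116547, chromosome 2, 190073239 to 190074333, plus strand) had 1.21, 1.36 and 0.351 CPM in control, 2.54, 1.34 and 2.96 in model, and 3.59, 3.37 and 4.00 in BXD. The control and model libraries overlapped, and BXD lay above both. BXD exceeded control by 1.89 ± 0.47 on the log2 scale (adjusted p = 0.01579). The difference of model from control was 1.22 ± 0.47 with an adjusted p of 0.06339, which passed only without model replicate 2 (1.49, adjusted p = 0.0472) and with DESeq2 (1.24, adjusted p = 0.0343). BXD and model differed by 0.67 (95% interval -0.33 to 1.68, adjusted p = 0.4177).

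Mpo, which encodes the granule enzyme myeloperoxidase (gene ID 303413, chromosome 10, 75087892 to 75098260, plus strand), had the most counts of the 9 genes and rose in model. Its CPM was 84.5, 38.1 and 73.0 in control, 141, 274 and 201 in model, and 45.2, 85.1 and 160 in BXD. Every model library lay above every control library, whereas BXD overlapped with both groups. Model exceeded control by 1.65 ± 0.47 on the log2 scale (adjusted p = 0.02052). This call was lost without control replicate 2 (1.37, adjusted p = 0.0677), control replicate 3 (1.73, adjusted p = 0.0514) or model replicate 2 (1.39, adjusted p = 0.0746). BXD differed from model by -1.09 (95% interval -2.12 to -0.05, adjusted p = 0.2225) and from control by 0.57 (interval -0.47 to 1.60, adjusted p = 0.3761).

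Mmp8, the collagenase stored in neutrophil granules (gene ID 63849, chromosome 8, 5768808 to 5777741, plus strand), was scarce in every library. Control libraries held 8, 4 and 3 counts, model libraries 9, 5 and 15, and BXD libraries 9, 11 and 12. The lowest BXD level, 0.751 CPM, was above the highest control level of 0.568 CPM, and model overlapped with both. The log2 difference was 1.19 for model against control (95% interval 0.05 to 2.34, adjusted p = 0.08602), 1.27 for BXD against control (interval 0.13 to 2.40, adjusted p = 0.08545) and 0.07 for BXD against model (interval -0.99 to 1.14, adjusted p = 0.9419). None was called.

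Lcn2, which encodes the iron-siderophore-binding lipocalin 2 (gene ID 170496, chromosome 3, 11414187 to 11417534, minus strand), was at 18.9, 22.4 and 31.3 CPM in control, 12.9, 16.5 and 32.4 in model, and 97.9, 19.2 and 23.4 in BXD. The groups overlapped, and 1 library, BXD replicate 1, was far above the rest. The log2 difference of model from control was -0.23 (95% interval -1.61 to 1.15, adjusted p = 0.7831). BXD differed from control by 0.95 (interval -0.41 to 2.32, adjusted p = 0.2614), which became -0.18 without BXD replicate 1, and from model by 1.18 (interval -0.20 to 2.56, adjusted p = 0.3051), which became 0.04 without that library.

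**Figure D2:**
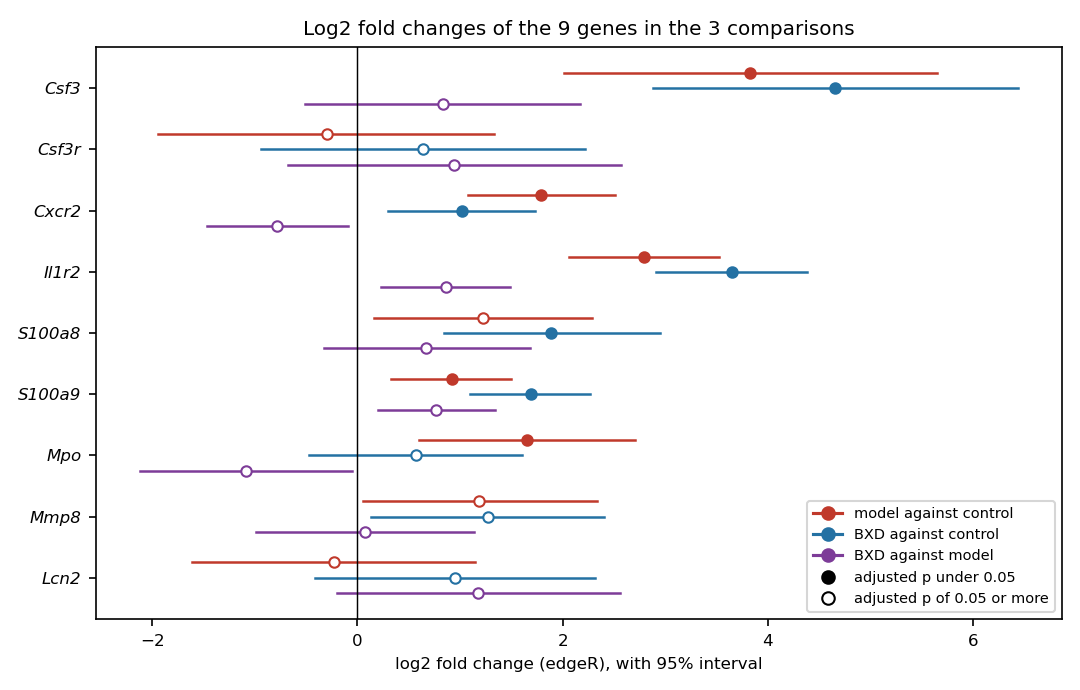
Log2 fold change of each of the 9 genes (horizontal axis) for model against control, BXD against control and BXD against model, from edgeR's quasi-likelihood fit of 3 libraries per group; bars are 95% confidence intervals and filled points are called. Csf3 and Il1r2 lie farthest to the right in both comparisons with control (3.83 and 2.79 for model), and 0 points are filled for BXD against model.

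Ordered by group mean, the 9 genes took 3 courses. The order BXD, model, control held for 5 (Csf3, Il1r2, S100a8, S100a9 and Mmp8), model, BXD, control for 2 (Cxcr2 and Mpo), and BXD, control, model for 2 (Csf3r and Lcn2). The last order rests on BXD replicate 1. Without it the log2 difference of BXD from control was -0.64 for Csf3r and -0.18 for Lcn2. For Mmp8 the log2 difference of BXD from model was only 0.07, so its place is uncertain. In CPM, groups of model and control did not overlap for 5 of the 9 genes, each higher in model, against 28.9% of all genes higher and 29.4% lower. BXD lay wholly above model for 3 genes (Il1r2, S100a8 and S100a9; 10.5% of all genes) and wholly below it for 1 (Cxcr2; 11.8% of all genes). At an unadjusted p under 0.05 the same comparison gave 2 genes higher (Il1r2 and S100a9; 11% of all genes) and 2 lower (Cxcr2 and Mpo; 9.85% of all genes), while 0 were called with edgeR, DESeq2 or limma-voom. For BXD against control, 5 genes did not overlap (Csf3, Il1r2, S100a8, S100a9 and Mmp8), each higher in BXD, against 23.8% of all genes higher and 24.8% lower. The median log2 difference of the 9 was 1.22 for model against control, 0.77 for BXD against model and 1.27 for BXD against control, beside -0.01, -0.01 and -0.02 over all genes.

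BXD replicate 1 was the highest of the 9 libraries for Csf3, Csf3r, Il1r2 and Lcn2, and model replicate 2 for Cxcr2 and Mpo. Across the 9 libraries, log2 CPM of Csf3 correlated with Il1r2 at r = 0.98, Il1r2 with S100a9 at 0.93, S100a8 with S100a9 at 0.87, Csf3r with Lcn2 at 0.87 and Cxcr2 with Mpo at 0.76. The coefficient of S100a8 with Mpo was 0.17. These values describe libraries that share their groups and composition scaling, so they carry no test.

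In the authors' deposited table, which comes from DESeq2, the log2 fold change of model against control was 3.96 for Csf3, 2.82 for Il1r2, 1.82 for Cxcr2, 1.68 for Mpo and 0.94 for S100a9. The q-values of these in the authors' deposited table were 0.000259, 6.88e-09, 2.12e-07, 8.20e-06 and 0.0244. S100a8 had 1.24 there with a q of 0.116, so it did not pass 0.05, unlike in the DESeq2 fit made here. The q-values of Mmp8, Csf3r and Lcn2 were 0.266, 0.788 and 0.748. For BXD against model, the lowest q of the 9 genes in the authors' deposited table was 0.101, for S100a9.

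Between genes, levels were compared per length in TPM (transcript abundance corrected for gene length and depth). In control the order was Lcn2 (65.9 ± 16.8 SD, n = 3), Mpo (48.7 ± 16.8), S100a9 (20.3 ± 7.06), S100a8 (15.4 ± 8.66), Cxcr2 (2.98 ± 1.41), Il1r2 (0.913 ± 0.334), Csf3r (0.793 ± 0.126), Mmp8 (0.507 ± 0.267) and Csf3 (0.18 ± 0.164). Neighbours in this order overlapped between libraries except at Mpo and S100a9, S100a8 and Cxcr2, and Cxcr2 and Il1r2. In model, Mpo (112.6 ± 30.8) stood first and did not overlap with Lcn2 (42.2 ± 23.5), and Csf3 had a mean of 2.03 ± 0.887, below Il1r2 at 4.92 ± 0.661 and above Mmp8 at 0.873 ± 0.43, with which it overlapped. In BXD the first 4 genes, Lcn2, Mpo, S100a9 and S100a8, overlapped each with the next, and Il1r2 (10.1 ± 2.36) stood above Cxcr2 (4.80 ± 1.12) without overlap, the reverse of their order in control and model.

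The label "neutrophil" was set against other genes that mark these cells. The granule genes at or near 0 are named first, because they were picked for that: summed over the 9 libraries, Elane (neutrophil elastase) had 7 counts, Prtn3 (proteinase 3) had 3, Camp (cathelicidin) had 21 and Ngp (neutrophilic granule protein) had 41. Ltf (lactoferrin), chosen after its values were seen, had 1. Other genes of the same list, also chosen after their values were seen, had more counts: Mmp9 (gelatinase B) had 154, Fcnb 230, Slpi (a protease inhibitor also made by epithelium) 832, Chi3l1 1999 and Lyz2 (lysozyme, also made by macrophages) 32920. Of these, 85 counts of Mmp9 came from model replicate 3, and its other libraries were at 0.213 to 1.34 CPM. For Fcnb, 108 counts came from BXD replicate 1, and its other libraries were at 0.538 to 1.82 CPM. Mpo had 2819, 7312 and 3742 counts summed over the control, model and BXD libraries. Retnlg, a marker of mature neutrophils that was also chosen after its values were seen, was at 4.99, 6.57 and 5.93 TPM in control, 3.66, 4.71 and 20.7 in model, and 6.58, 14.5 and 48.3 in BXD. Model overlapped with both other groups, and BXD began just above the highest control library. Among the 9 genes, S100a8 and S100a9 were also highest in BXD replicate 3 and Mmp8 in model replicate 3, whereas Csf3, Csf3r, Il1r2 and Lcn2 were highest in BXD replicate 1 and Cxcr2 and Mpo in model replicate 2. The share of neutrophils in the samples was not measured, and the 9 genes are described by name.

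**Figure D3:**
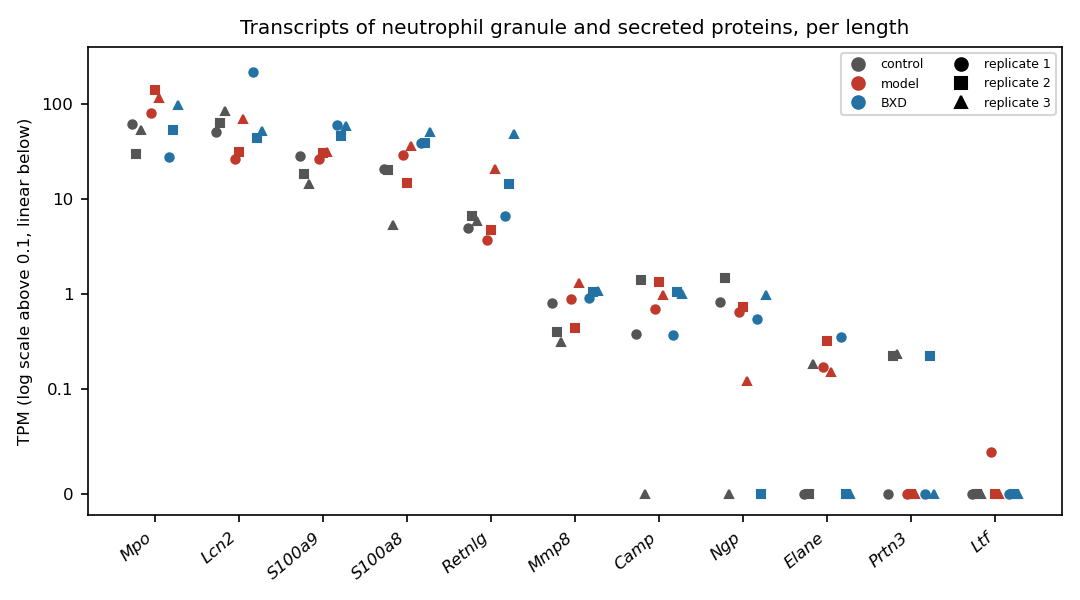
Level in TPM (vertical axis, logarithmic above 0.1 and linear below) of genes for neutrophil granule and secreted proteins (horizontal axis), 1 point per library, with colour for the group and shape for the replicate. Mpo lies far above Elane, Prtn3 and Ltf, which are at or near 0 in every group.

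The counts of called genes in the lists below stand beside 21.6% of all genes called higher and 20.6% called lower in model against control, and 16.1% and 14.3% in BXD against control. A list of 24 granule proteins and neutrophil proteases had 11 tested genes, of which 1 rose in model and 3 rose in BXD against control, with medians of 0.41 and 0.79 on the log2 scale. The first became 0.14 with library size alone and the second 0.38 without BXD replicate 1. The gene that rose in model, Cd63, a membrane protein of granules and of many other vesicles (0.41, adjusted p = 0.00555), was not called with library size alone or FPKM. Hp, the haemoglobin-binding haptoglobin, was at 4.46 ± 0.393 CPM (SD, n = 3) in control and 10.0 ± 2.47 in BXD, a rise of 1.16 (adjusted p = 0.00892). Lrg1, a leucine-rich glycoprotein of neutrophil granules, rose by 0.69 in BXD (adjusted p = 0.0129). Of 18 tested surface receptors and adhesion molecules, 3 rose and 4 fell in model, and 3 rose and 1 fell in BXD against control. Cd14, a co-receptor for lipopolysaccharide carried by neutrophils and monocytes, rose from 24.1 ± 2.64 CPM to 55.5 ± 5.47 in model and 53.6 ± 9.50 in BXD (adjusted p = 0.00074 and 0.00127). C3ar1, the receptor for complement fragment C3a, fell by 1.33 on the log2 scale in model (adjusted p = 0.0118) and by 1.48 in BXD (adjusted p = 0.0106). Of the 7 tested genes of the NADPH oxidase, the enzyme of the oxidative burst, Rac1 rose and Ncf4 fell in model. The Rac1 value of 0.27 was not called with library size alone, upper quartiles or FPKM, nor without any 1 of the control or model replicates or BXD replicate 2 or 3, and the Ncf4 value of -0.64 was not called without control replicate 2 or 3 or model replicate 2 or 3.

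Among ligands of CXCR2 and other neutrophil attractants, 1 of 8 tested genes rose in model, Anxa1, which encodes a protein known for limiting neutrophil entry (0.43, adjusted p = 0.0198, not called without control replicate 1 or 2 or model replicate 1, nor with library size alone, upper quartiles or FPKM). In BXD against control, 4 rose and 2 fell. Cxcl1, the main CXCR2 ligand of the rat, was at 3.76, 1.69 and 1.61 CPM in control, 9.46, 5.11 and 4.63 in model, and 174, 31.9 and 4.53 in BXD. The BXD libraries ranged from below the lowest model library to far above the highest. BXD exceeded control by 4.89 (adjusted p = 0.0158), or by 2.95 without BXD replicate 1 (adjusted p = 0.0211), and the call was lost without control replicate 2 or control replicate 3 and with limma-voom. The difference of model from control was 1.44 (adjusted p = 0.343) and that of BXD from model 3.45 (adjusted p = 0.143). Cxcl2, chosen after its values were seen, was at 38.5 CPM in BXD replicate 1 and between 0.0701 and 2.51 CPM in the other libraries.

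Of 18 genes of signalling below the G-CSF receptor, 5 rose and 5 fell in model, and 5 rose and 4 fell in BXD against control. Stat3, the transcription factor activated by that receptor, rose from 230 ± 28.0 CPM in control to 474 ± 36.9 in BXD (1.04, adjusted p = 0.00175). Its feedback inhibitor Socs3 was at 17.9, 13.3 and 22.9 CPM in control, 104, 50.3 and 70.6 in model, and 349, 118 and 52.5 in BXD. All stressed libraries lay above all control libraries, by 2.06 in model (adjusted p = 0.0257) and 3.26 in BXD (adjusted p = 0.00632; 2.24 and 0.00589 without BXD replicate 1). The Socs3 call in model was lost without any 1 of the control replicates and without model replicate 1 or 3. Mcl1, a survival factor of neutrophils, rose by 0.80 and 1.06 (adjusted p = 0.0032 and 0.00153), and Tyk2, a kinase of cytokine receptors, fell by 1.24 and 1.25 (adjusted p = 0.000423 in model).

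**Figure D4:**
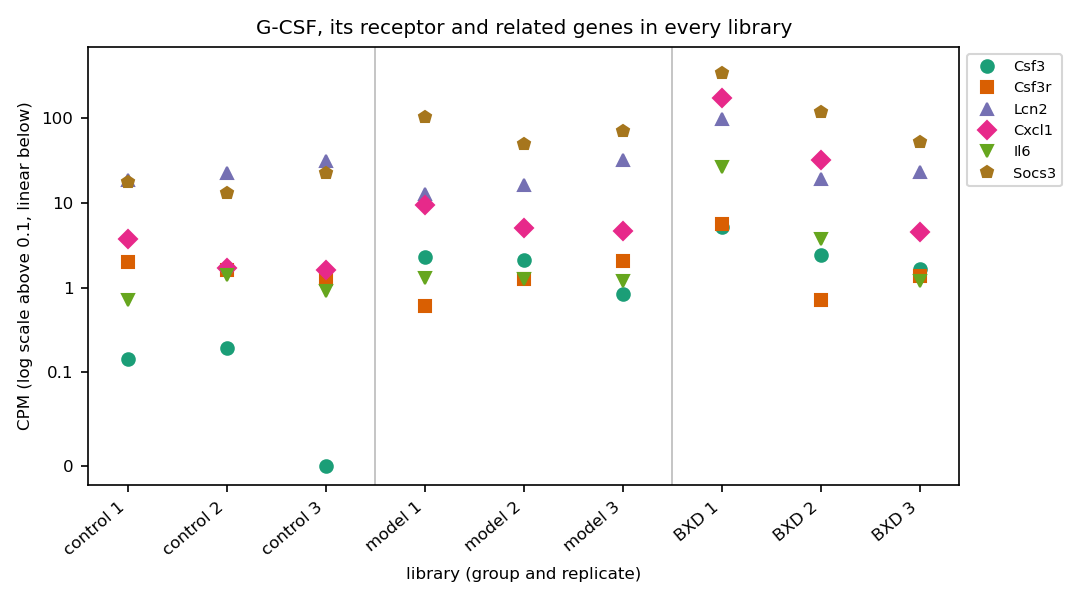
Level in CPM (vertical axis, logarithmic above 0.1 and linear below) of Csf3, Csf3r, Lcn2, Cxcl1, Il6 and Socs3 in each of the 9 libraries (horizontal axis), 1 point per gene and library with a marker for each gene. Csf3 and Socs3 lie higher in all model and BXD libraries than in control, the Csf3r points of the groups overlap, and BXD library 1 is highest for all 6 genes.

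Of 11 tested inducers of G-CSF and other colony stimulating factors, 1 rose in model (Kitlg, which encodes stem cell factor and was chosen after its values were seen) and 4 rose in BXD against control. Csf2rb, the shared beta chain of the receptors for GM-CSF, interleukin-3 and interleukin-5, was the one gene of all lists that was called between BXD and model. It was at 42.3, 37.2 and 42.5 CPM in control, 37.8, 24.1 and 37.0 in model, and between 100 and 142.5 in BXD, where the BXD libraries lay above the others. BXD exceeded model by 1.80 (adjusted p = 0.032) and control by 1.49 (adjusted p = 0.00135). The call against model was lost without any 1 of the control or model replicates and without BXD replicate 3, and in a fit of only the groups compared, with differences of 1.61 to 1.90 over all libraries left out. Il6, a cytokine that acts beside G-CSF in emergency granulopoiesis, ranged from 0.710 to 1.43 CPM in control and stood at 26.4, 3.77 and 1.21 CPM in BXD libraries 1 to 3. Its difference of BXD from control, 3.34 (adjusted p = 0.0284), was 1.28 (adjusted p = 0.0929) without BXD replicate 1, and the call was also lost without any 1 of the control replicates, on FPKM, with limma-voom and in a fit of only the groups compared.

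Of 11 other genes of interleukin-1 receptors, antagonists and their partners, 2 rose and 3 fell in model, and 2 rose and 1 fell in BXD against control. Il1r1, the signalling receptor, rose from 115 ± 11.7 CPM in control to 341 ± 81.0 in BXD (1.57, adjusted p = 0.00216). Its level in model was 212 ± 65.0, a difference of 0.88 (adjusted p = 0.0163) that was lost without control replicate 1 or 2, with library size alone and on FPKM. Sigirr, an inhibitory member of the family, fell by 1.26 in model (adjusted p = 0.000754) and by 1.07 in BXD, and the adaptor Myd88 rose by 1.04 and 1.39 (adjusted p = 0.00108 and 0.000692). Of 9 granulocyte transcription factors, 2 rose in model and 4 in BXD against control. Cebpa, which directs granulocyte commitment and is also a regulator of fat cells, was at 229 ± 38.1, 781 ± 304.8 and 474 ± 55.7 CPM in control, model and BXD (1.77, adjusted p = 0.00133, for model). Among 7 tested partners of MMP8, 1 rose in model and 2 in BXD against control. One of them was the metalloproteinase inhibitor Timp3, by 0.86 in model (adjusted p = 0.00124) and 0.98 in BXD. Among 11 partners of calprotectin and lipocalin 2, 1 rose and 1 fell in model, and 0 rose and 2 fell in BXD against control. The 2 were Slc22a17 (-0.41, adjusted p = 0.0348) and Ager (-0.60, adjusted p = 0.0483). Both calls were lost without any 1 of the BXD replicates.

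The medians of these lists other than the granule list lay between -0.45 and 0.21 for model against control. Those of the surface receptor, NADPH oxidase, CXCR2 ligand, G-CSF signalling, granulocyte transcription factor and MMP8 partner lists changed from above to below 0 with scaling by library size alone, which moved the median of all genes to -0.28.

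Some lists of genes for other cells and for glucocorticoid signals differed between the groups, while others overlapped. Of 13 genes induced by glucocorticoids, 10 rose in model and 9 rose in BXD against control, with medians of 1.60 and 1.41. Tsc22d3 and Dusp1 of this list, chosen after their values were seen, overlapped between control and model. Tsc22d3 was at 306, 190 and 394 CPM in control and 381, 299 and 362 in model. Dusp1 was at 324, 145 and 227 CPM in control and 240, 207 and 172 in model. The metallothionein Mt2A was at 18.8 ± 5.97, 439 ± 129 and 978 ± 241 CPM in control, model and BXD. The summed level of the list was 1614 to 2292 TPM in control, 9585 to 15560 in model and 18940 to 33820 in BXD, in the group order of Csf3, Il1r2 and S100a9. That sum is mostly Mt1 and Mt2A: without them the other 11 genes summed to 1128 to 1547 TPM in control, 1831 to 2214 in model and 1900 to 3144 in BXD, where model and BXD overlapped. All 10 adipocyte markers rose in model and 7 rose in BXD against control. Their summed level was 11080 to 14680 TPM in control, 20780 to 37000 in model and 14780 to 21020 in BXD, in the group order of Mpo and Cxcr2, and model replicate 2 was highest for all 3. Smooth muscle markers fell in model, 6 of 9 genes, and 2 rose in BXD against control. Their summed level was 4514 to 6817 TPM in control, 1504 to 3014 in model and 5424 to 8013 in BXD, where BXD and control overlapped. Of 14 macrophage markers, Cd14 among them, 6 rose and 1 fell in model, with summed levels that overlapped (960 to 1513 TPM in control, 1085 to 1645 in model and 1021 to 1293 in BXD). Red cell markers, which trace blood in the sample, summed to 11830 to 23180 TPM in control, 15380 to 24460 in model and 8550 to 11660 in BXD, and of 8 genes 0 were called in model and 1 was lower in BXD against control. Of 15 lymphocyte markers 0 were called in model and 2 were lower in BXD against control, with summed levels of 99.5 to 233.9 TPM in 8 libraries and 397.2 in model replicate 3, the model library with the highest Mmp8, S100a8, Lcn2, Csf3r and Retnlg. In all, 0 of the listed marker genes was at 0 in all 9 libraries. The part of these cells and signals in the levels of the 9 genes was not tested.

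Each of the 9 genes was compared in log2 CPM with 12945 candidates over 9 libraries. Candidates averaging below 1 CPM were left out, which removed scarce granule genes such as Elane, Prtn3 and Ltf. The candidates were also not chosen as neutrophil genes, so the kinds of gene named below say little about a neutrophil origin, which was not tested. Csf3 was most like Il1r2 (r = 0.977), Chic2 (0.976) and Plaur, the urokinase receptor (0.972). Plaur stood at 10.1, 21.7 and 31.7 CPM in control, model and BXD. Cxcr2 was most like Gys2, the liver and fat form of glycogen synthase (0.984), Thoc3 (0.983) and Tmem86a (0.981). Gys2 stood at 29.9, 118 and 64.9 CPM. Mpo was most like Pank3 (0.974), Mst1 (0.971) and Trappc8 (0.96), and Il1r2 was most like Mob4 (0.988), Acbd7 (0.988) and Nol10 (0.984). S100a8 was most like Paqr3 (0.949) and S100a9 most like Pptc7 (0.954). Csf3r was most like Mef2c (0.97), Mmp8 most like Spata13 (0.948) and Lcn2 most like Phkg1 (0.911), followed by Fcnb, a ficolin of myeloid cells (0.904). With this many candidates, high coefficients over 9 libraries in 3 groups are common, and they are given as a description.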

How the data were processed

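Per the labels' protocols, 9 poly(A) libraries of rat gastric lymphatic vessels were sequenced with Illumina chemistry and no stranded kit is named. HISAT2 2.2.4, Bowtie2 2.2.5 and the build Rnor_6.0 come from the submitters' processing notes. The program behind the estimates was not given in the sources used here. No other gene of the table overlaps any of the 9. The authors deposited estimated counts per gene with FPKM and TPM values, per the file headers, and 88.8% of the counts were whole within 1e-09. A second table deposited by the authors gives, per the file headers, log2 fold changes from DESeq2 with their q-values and p-values. A further 45 columns of per-sample values were not used, and an omeprazole group was not analysed here.

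Estimated counts were rounded, filtered with filterByExpr and scaled by trimmed means of M-values (factors 0.873 to 1.154). A robust quasi-likelihood model (edgeR 4.0.16, R 4.3.3) took in the 9 libraries together, with group as its single factor and 6 residual degrees of freedom, and estimated a biological coefficient of variation of 23.3%. On simulated data for model against control with 14489 genes, 95% of 100 genes changed 4-fold and 50% of 100 genes changed 2-fold were recovered, and 6 unchanged genes were called. The changed genes were drawn from those with a mean above 2 CPM, and no shift in library composition was simulated. The recovery therefore does not cover Csf3, Csf3r and Mmp8, whose means over the 9 libraries lay lower. Replicates differed well beyond sampling noise (chi-square per degree of freedom 14.0 to 52.1). Alternatives used DESeq2 1.42.0, limma 3.58.1 (voom, and log2 of FPKM plus 0.1), other scalings and filters, and each library left out.

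The 9 genes and the gene lists were chosen with earlier results of these data known. Named genes were the 9, up to 4 called genes per list with the smallest p, the 3 most similar genes for each of the 9, and markers at or near 0. Fewer are named in places.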

Additional observations from a re-analysis of the deposited data

How the results depend on the processing

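Over 19 alternatives for each gene and comparison (18 for Mmp8, which had no adjusted p from DESeq2 between BXD and model and did not pass the filter in fits of control with only model or only BXD), 483 of 510 values for the 9 genes kept their direction and side of the threshold, 17 lost a call, 2 gained one and 8 changed sign. The sign changes were in values that were not called: for model against control, Csf3r and Lcn2 without model replicate 1 (0.03 and 0.02); for BXD against model, Csf3r without BXD replicate 1 (-0.35) and Mmp8 without model replicate 2 (-0.20); and for BXD against control, Csf3r without BXD replicate 1 (-0.64) and on FPKM (-0.06), Lcn2 without BXD replicate 1 (-0.18) and Mpo without BXD replicate 3 (-0.00046). Leaving out 1 library each, the values ran from -0.79 to 0.03 for Csf3r and from -0.72 to 0.02 for Lcn2 (model against control), from -0.35 to 1.44 for Csf3r and from -0.20 to 0.43 for Mmp8 (BXD against model), and from -0.64 to 1.08 for Csf3r, from -0.00046 to 0.91 for Mpo and from -0.18 to 1.31 for Lcn2 (BXD against control). The cause was not tested.

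Genes called higher and lower in model against control, 3161 and 3016, became 1619 and 4910 with library size alone and 1632 and 4831 on FPKM. For BXD against control, 2355 and 2089 became 1370 and 3602, and 1296 and 3576. The share of calls that were higher, 51.2% and 53%, became 24.8% and 27.6% with library size alone, 25.3% and 26.6% on FPKM, and 37.7% and 37.2% when scaled by upper quartiles. For BXD against model, the 8 genes called higher became 15 without a filter, 0 with the replicate block, 0 with only the groups compared, 642 with DESeq2, 2 with limma-voom and 25 on FPKM, and the 1 called lower became 466 with DESeq2.

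Leaving out 1 library gave 3 to 5 of the 9 genes higher in model against control, 0 in BXD against model and 4 to 5 in BXD against control. Over all genes it gave 2130 to 3474 higher and 2103 to 3416 lower in model against control, 0 to 135 and 1 to 19 in BXD against model, and 1439 to 2594 and 1289 to 2253 in BXD against control.

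Deviations from the group mean were correlated between libraries with the same replicate number (0.048, 0.057 and 0.086 for model with control, -0.106, -0.431 and -0.203 for BXD with model, and 0.055, -0.048 and -0.239 for BXD with control). Deviations from a mean of 3 libraries sum to 0 within a group, so these values cannot exclude a shared day or batch. The labels give no pairing. With the replicate block, calls over all genes were 5365, 1 and 3663 against 6177, 9 and 4444, and the 9 genes had 5, 0 and 5 calls as before, while Csf2rb was no longer called between BXD and model, nor Il6 between BXD and control. Depth limits Csf3 and Mmp8, which had 5 and 15 counts in all control libraries.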
